A study of Mus musculus with 20 samples.

Results

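The genes of the epidermal growth factor (EGF) family described here are 6 ligand genes (Areg, Ereg, Egf, Hbegf, Btc and Tgfa) and 3 receptor genes (Egfr, Erbb2 and Erbb3). They were taken by symbol, and 9 of 9 were present in both deposited tables, one of 17294 rows (acute) and one of 16195 rows (prolonged). All 9 also passed the filter on low values at both times. Gene expression was measured by poly(A) RNA-seq of jejunal epithelial cells from female mice, and the series design names the crypt epithelium. There were 5 control and 7 double-knockout (DKO) libraries 7 days after ablation was induced (the acute model), and 3 control and 5 DKO libraries 5 months after it (the prolonged model). The labels give the genotypes as Control/WT and Kdm6a/Kdm6b knockout. Kdm6a and Kdm6b encode demethylases that remove a repressive methyl mark from histone H3. The recombinase, its promoter, the inducing agent, the floxed alleles carried by controls and the age of the mice are not given in the sources used here. Each acute library carries its own animal number, and the prolonged libraries are labelled as biological replicates without one.

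EGF family ligands are made as membrane-anchored precursors, cut free by metalloproteases, and bind receptor tyrosine kinases of the ErbB family on the same or neighbouring cells. Egfr binds the ligands listed here. Erbb2 has no known ligand and acts as a partner of the other receptors, and Erbb3, whose kinase is impaired, binds neuregulins and signals through its partner. In the intestine these signals drive division of crypt cells and repair after injury, and the Ras-MAPK cascade downstream switches on its own inhibitors, such as the Sprouty proteins and the dual-specificity phosphatases.

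Areg and Tgfa, the members called at both times, are shown by the 250 bases before their annotated start sites, on the gene strand, from RefSeq (GRCm38.p6), where 6 of the 9 members were matched. Capitals mark matches to 3 motifs. The cyclic AMP response element, TGACGTCA, reads the same on both strands. The GC box, GGGCGG, was sought on either strand. The TATA box was sought on the gene strand only, with the letters TATAAA. An AP-1 site (TGANTCA, either strand) was searched for too and matched neither sequence.
Areg, chr5:91139349-91139598 (plus strand): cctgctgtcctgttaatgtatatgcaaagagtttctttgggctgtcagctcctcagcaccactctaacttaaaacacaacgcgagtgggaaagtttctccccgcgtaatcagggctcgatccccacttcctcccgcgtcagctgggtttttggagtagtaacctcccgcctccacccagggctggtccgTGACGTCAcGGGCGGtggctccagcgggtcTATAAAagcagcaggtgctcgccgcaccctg
Tgfa, chr6:86194972-86195221 (plus strand): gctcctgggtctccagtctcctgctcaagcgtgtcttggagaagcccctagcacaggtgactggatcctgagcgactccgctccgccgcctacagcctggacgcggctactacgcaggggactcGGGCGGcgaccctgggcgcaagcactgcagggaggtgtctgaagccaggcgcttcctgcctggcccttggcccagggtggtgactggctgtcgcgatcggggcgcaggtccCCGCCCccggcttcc
The Areg stretch held a full cyclic AMP response element ending 54 bases before the start, a GC box and a TATA box, and no 2 of these matches overlapped. The Tgfa stretch held 2 GC boxes and matched neither of the other motifs. Of the 32851 RefSeq start sites in the same table, 1.55% held TGACGTCA within the same length, 32.7% a GC box, 7.59% a TATA box and 6.75% an AP-1 site. The Areg stretch had 15 CpG dinucleotides and the Tgfa stretch 19, against a median of 6 over all start sites. These matches describe the letters only, and no binding or chromatin was measured here.

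Values are CPM, the reads of a gene scaled to an equal total over all genes in each library, given per library or as mean ± SD. The libraries held from 9914738 to 26586045 reads assigned to genes. A difference is the DKO mean less the control mean of log2(CPM + 1), with standard errors from limma-trend fitted to each time alone, and a gene was called at an adjusted p under 0.05 over all tested genes. Kdm6a was 66.1 ± 6.62 CPM in acute controls and 42.6 ± 2.73 CPM in acute DKO libraries, and Kdm6b 101 ± 6.71 and 70.4 ± 8.87 CPM. At the prolonged time Kdm6a was 76.2 ± 5.95 and 49.1 ± 3.93 CPM, and Kdm6b 102 ± 3.85 and 76.3 ± 4.98 CPM. At each time the DKO and control ranges of both genes lay apart, with DKO below, as for 6.55% (acute) and 11.7% (prolonged) of tested genes. These gene-level values also count reads outside a deleted part. Epithelial markers, of which 8 of 8 were measured, summed to between 9309 and 10753 CPM. Immune cell markers summed to at most 1111 CPM in any library, and stromal, muscle and endothelial markers to at most 749 CPM. These sums went with the labelled cell type. Enterocyte markers summed to between 26460 and 46808 CPM and crypt base stem cell markers to between 710.9 and 2181 CPM, so the preparations held transcripts of both. Stem cell sums were 1667 to 2181 CPM in acute controls and 710.9 to 1382 CPM in acute DKO libraries. At the prolonged time they were 1808 to 2018 and 1208 to 1443 CPM. Limma called 5 (acute) and 2 (prolonged) of these 10 markers lower, against 12.1% and 8.94% of all tested genes. Villus tip sums went the other way: 761 to 1483 and 1277 to 2674 CPM (acute), 843 to 1264 and 1298 to 1416 CPM (prolonged). The part of these shifts in the member results was not tested. Acute DKO 3 and DKO 4 stood apart on the first principal component of the acute libraries (34.0 and 45.9, the other libraries between -28.0 and 12.1), and the counts of called members, pathway genes and Paneth cell markers are given without them as well. In bulk tissue, fewer cells of a type and less RNA per cell cannot be told apart.

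At the acute time 4 of the 9 members were called: the ligand genes Areg, Hbegf and Tgfa rose and the receptor gene Erbb2 fell. Over all 13597 genes tested, 15.0% were called, 2.90% higher and 12.1% lower. With edgeR and TMM factors, which rescale libraries for composition, Btc was called as well, against 4.90% of genes called higher and 7.93% lower. At the prolonged time 2 of the 9 were called, Areg and Tgfa, both higher, against 14.7% of 13316 genes called, 5.74% higher and 8.94% lower (6.20% and 8.75% with edgeR, which called the same 2 members). The median difference over the 9 members was -0.08 at the acute time (-0.07 over all tested genes) and 0.13 at the prolonged time (0.00151 over all tested genes). Without acute DKO 3 and 4, Areg, Btc and Tgfa were called higher and 0 members lower, against 2.91% of genes higher and 9.64% lower. In the authors' deposited table, which rests on DESeq2 and calls 15.0% of genes at the acute time and 15.6% at the prolonged time, Btc was also higher at the acute time (log2 fold change 0.56, adjusted p = 0.00103). Otherwise that table calls the same members as limma: Areg, Hbegf and Tgfa higher and Erbb2 lower (acute), and Areg and Tgfa higher (prolonged).

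**Figure D1:**
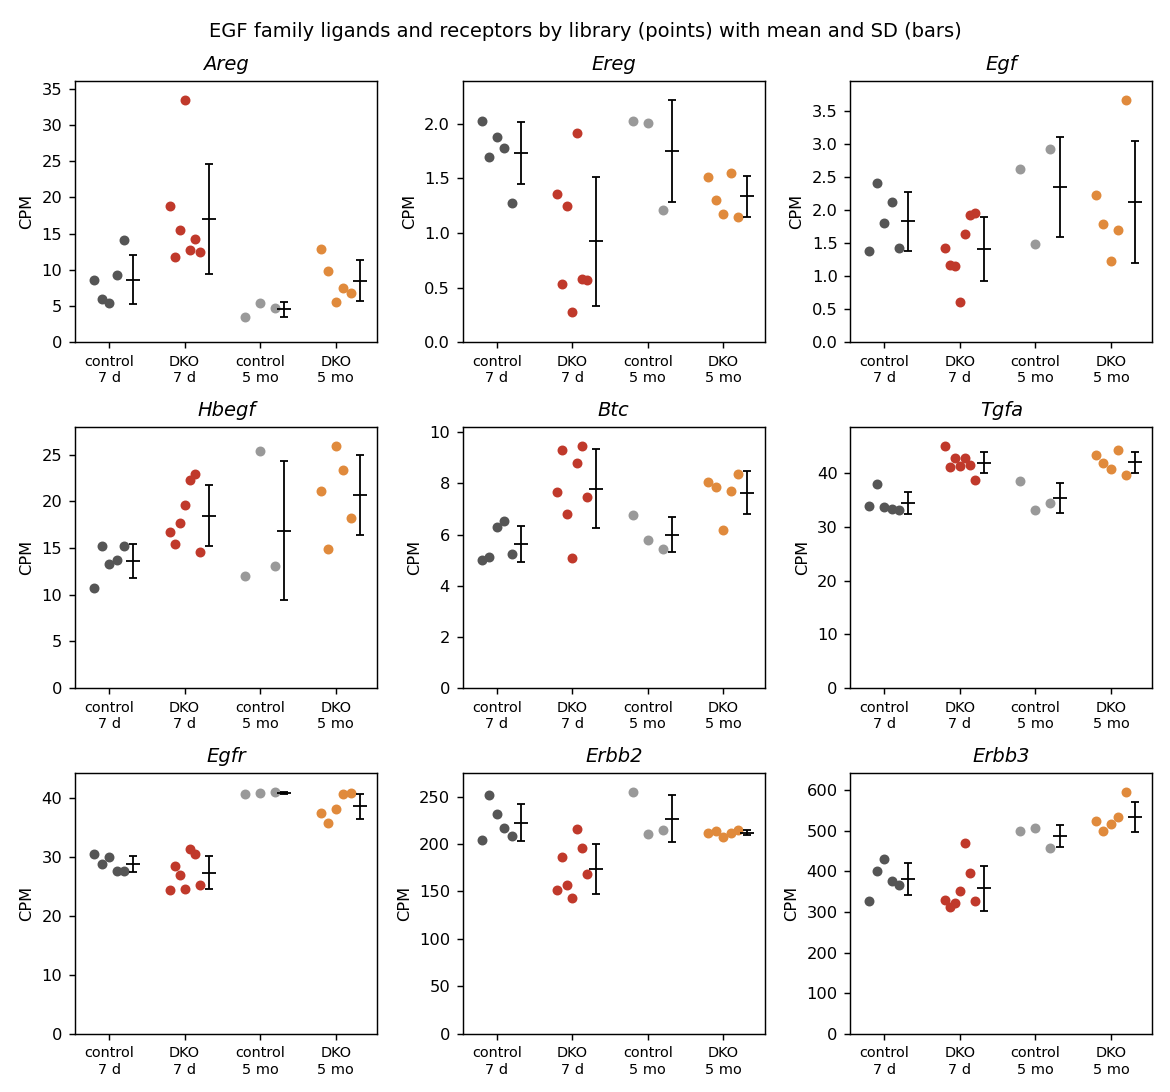
CPM of the 9 members in every library, with 1 point per library and the mean ± SD of each group beside it. The vertical axes start at 0 and differ between genes. Tgfa is the member whose DKO and control libraries separate at both times, from 38.7 CPM upwards in acute DKO libraries against at most 38.0 CPM in acute controls.

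**Figure D2:**
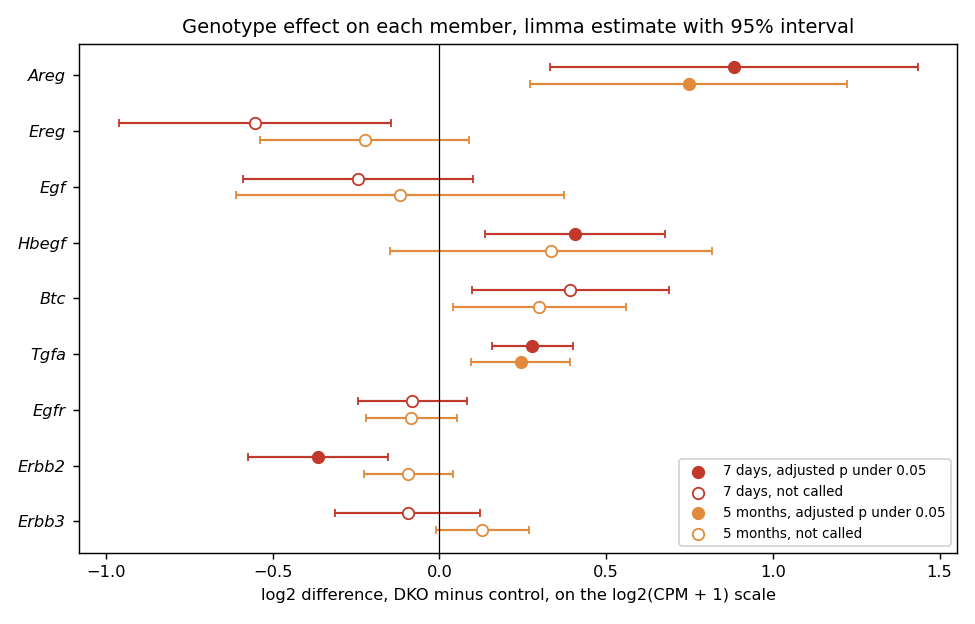
The difference between DKO and control libraries for each member at each time, on the log2(CPM + 1) scale, with its 95% interval from limma. Filled points passed an adjusted p of 0.05, and 4 members did so at 7 days and 2 at 5 months.

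Areg encodes amphiregulin, a ligand of Egfr that crypt cells and immune cells make after injury. Its level was 8.56, 6.03, 5.38, 9.24 and 14.1 CPM in acute controls 1 to 5, and lay between 11.7 and 33.4 CPM in the 7 acute DKO libraries, with a median of 14.3 CPM. The groups overlapped through control 5, which exceeded 3 DKO libraries, and the highest value by far was in DKO 4. The mean went from 8.66 ± 3.44 to 17.0 ± 7.63 CPM, a difference of 0.88 ± 0.26 (adjusted p by limma = 0.0335). Without DKO 4 the difference was 0.71 (adjusted p by limma = 0.0283), and without DKO 3 and 4 together 0.69 (0.0499). The call was lost without control 1 (adjusted p by limma = 0.0644), control 2 (0.0822), control 3 (0.103), control 4 (0.0601), DKO 1 (0.0680) or DKO 3 (0.0547).

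In the prolonged libraries Areg was at 3.45, 5.39 and 4.74 CPM in controls 1 to 3, and at 12.8, 9.89, 5.50, 7.47 and 6.86 CPM in DKO 1 to 5. The lowest DKO library (DKO 3) lay just above the highest control, so the groups did not overlap. Of all tested genes at this time, 8.82% were higher in every DKO than in every control library. The difference was 0.75 ± 0.22 (adjusted p by limma = 0.0392). The call was lost without control 1 (adjusted p by limma = 0.134), control 3 (0.0970), DKO 1 (0.0549), DKO 2 (0.0743), DKO 4 (0.0595) or DKO 5 (0.0511), and lost in 1 fit over all 4 groups (0.162). Set across the 2 tables, which were normalised separately, the mean level was highest in acute DKO libraries, lower and overlapping in acute controls (8.66 CPM) and prolonged DKO libraries (8.51 CPM), and lowest in prolonged controls (4.53 ± 0.986 CPM).

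Because Areg is also made by immune and stromal cells, their markers were read in the same libraries. Mast cell and type 2 innate lymphoid cell markers, of which 10 of 10 were in the acute table, summed to between 23.1 and 42.0 CPM in acute controls and between 27.9 and 36.6 CPM in 6 of the 7 acute DKO libraries. In acute DKO 4 the sum was 258.5 CPM, with the mast cell protease gene Mcpt1 at 164 CPM against 6.56 CPM or less in the other acute libraries. Il5, which encodes a cytokine of type 2 lymphoid cells, was at 0 in all acute controls. Its mean normalised signal over the acute libraries was only 0.483 in the authors' deposited table (unadjusted p by DESeq2 = 0.283). Nothing about the genotype is read from so few reads. In the prolonged table, which holds 8 of these 10 markers, the sums were between 35.3 and 44.0 CPM in controls and between 40.8 and 57.1 CPM in DKO libraries. Broader immune cell markers (13 of 14 in the tables) summed to between 368 and 703 CPM in acute controls and between 373 and 1111 CPM in acute DKO libraries, and stromal, muscle and endothelial markers (15 of 15) to between 52.2 and 225 CPM and between 40.9 and 749 CPM, highest in DKO 3. At the prolonged time these sums were 250.1 to 526 CPM in controls and 323 to 754 CPM in DKO libraries for immune markers, and 19.0 to 21.2 and 19.7 to 34.9 CPM for stromal markers. Immediate early genes, a class that responds to dissociation of tissue, summed to between 935 and 1199 CPM in acute controls and between 1083 and 1306 CPM in acute DKO libraries, with both highest values in DKO 3 and 4, and to between 886 and 1118 CPM in prolonged controls and between 996 and 1134 CPM in prolonged DKO libraries. Of these 16 genes, limma called 4 higher at the acute time and 1 at the prolonged time, and 0 lower. Over all tested genes, 2.90% and 5.74% were called higher. As given above, the Areg difference was 0.71 without acute DKO 4. That value does not show which cells made Areg in any library. The part of any of the markers above in the Areg result was not tested.

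Tgfa encodes transforming growth factor alpha, an Egfr ligand of intestinal epithelium. It showed a smaller change than Areg with less spread. It was at 33.8, 38.0, 33.7, 33.3 and 33.1 CPM in acute controls 1 to 5, and between 38.7 and 45.0 CPM in acute DKO libraries, with a median of 41.4 CPM. Every DKO library lay above every control, by a narrow margin over control 2, and 1.24% of tested genes were higher without overlap at this time. The difference was 0.28 ± 0.06 (adjusted p by limma = 0.00497), and its adjusted p stayed between 0.00331 and 0.0188 when each of the 12 acute libraries was left out in turn.

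At the prolonged time Tgfa was at 38.6, 33.1 and 34.5 CPM in controls 1 to 3, and at 43.3, 42.0, 40.7, 44.4 and 39.7 CPM in DKO 1 to 5. The groups again did not overlap, and the group means (35.4 ± 2.85 and 42.0 ± 1.9 CPM) were close to those of the acute time (34.4 ± 2.05 and 41.9 ± 1.94 CPM). The difference was 0.24 ± 0.07 (adjusted p by limma = 0.0332). The call was lost without control 2 (adjusted p by limma = 0.104), control 3 (0.127), DKO 1 (0.0696), DKO 2 (0.0568) or DKO 4 (0.0759). Enterocyte markers (11 of 11 measured) moved, as a sum, in the same direction as Tgfa, with overlapping ranges. They summed to between 26460 and 40062 CPM in acute controls and between 34270 and 46808 CPM in acute DKO libraries. At the prolonged time the sums were 31966 to 43417 and 42833 to 46600 CPM. Of the 11 genes, 10 (acute) and 9 (prolonged) had differences above 0. By limma, 4 were called higher at the acute time (2 without DKO 3 and 4) and 1 at the prolonged time. Over all tested genes, 2.90% (2.91% without DKO 3 and 4) and 5.74% were called higher. Whether more enterocyte RNA had a part in the Tgfa result was not tested.

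Hbegf encodes heparin-binding EGF-like growth factor, which binds Egfr and is induced by wounding. It was at 10.7, 15.2, 13.3, 13.7 and 15.2 CPM in acute controls 1 to 5, and between 14.6 and 22.9 CPM in acute DKO libraries, with a median of 17.7 CPM. The groups overlapped only between the 2 highest controls and the lowest DKO library, DKO 7, and the difference was 0.41 ± 0.13 (adjusted p by limma = 0.0444). This call lies close to the threshold. It was lost without control 1 (adjusted p by limma = 0.120), control 2 (0.0502), control 3 (0.0994), control 4 (0.0858), DKO 1 (0.0599), DKO 3 (0.0693), DKO 4 (0.0650), DKO 5 (0.0723) or DKO 6 (0.0721), without DKO 3 and 4 together (0.0899), with no filter on low values (0.0557) and in 1 fit over all 4 groups (0.0832). Later, at 5 months, Hbegf was at 12.0, 25.5 and 13.1 CPM in controls 1 to 3, and at 21.1, 14.9, 25.9, 23.3 and 18.2 CPM in DKO 1 to 5. Control 2 exceeded every DKO library but DKO 3, and the difference of 0.33 ± 0.22 was not called (adjusted p by limma = 0.363). Without prolonged control 2 it was 0.66 (adjusted p by limma = 0.0325).

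Btc encodes betacellulin, which binds both Egfr and Erbb4. It was at 4.99, 5.12, 6.28, 6.53 and 5.26 CPM in acute controls 1 to 5, and between 5.08 and 9.46 CPM in acute DKO libraries, with a median of 7.67 CPM. All DKO libraries except DKO 4 lay above every control. The difference of 0.39 ± 0.14 missed the threshold on the CPM scale (adjusted p by limma = 0.0709), but scaling for composition called it, as TMM-scaled CPM gave 0.47 (adjusted p by limma = 0.0165) and edgeR with TMM factors 0.55 (adjusted p = 0.0168). Without DKO 4 alone it was 0.48 (adjusted p by limma = 0.0122). In the prolonged model Btc was at 6.77, 5.79 and 5.45 CPM in controls 1 to 3, and at 8.04, 7.85, 6.19, 7.71 and 8.36 CPM in DKO 1 to 5, with only DKO 3 inside the control range (0.30 ± 0.12, adjusted p by limma = 0.119).

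The 2 least abundant ligand genes had lower means in DKO libraries, and neither was called. Ereg encodes epiregulin, a ligand of Egfr and Erbb4. It was at 2.02, 1.69, 1.88, 1.78 and 1.27 CPM in acute controls 1 to 5, and between 0.280 and 1.92 CPM in acute DKO libraries, with a median of 0.575 CPM. Only DKO 5, at 1.92 CPM, and DKO 1, at 1.35 CPM, exceeded the lowest control. The difference was -0.55 ± 0.19 (95% interval -0.96 to -0.14, adjusted p by limma = 0.0671), and without DKO 5 it was -0.66 (0.0172). In 1 fit over all 4 groups it was called with the same difference (adjusted p by limma = 0.0208), while edgeR with TMM factors gave an adjusted p of 0.202. Prolonged libraries had Ereg at 2.03, 2.01 and 1.21 CPM in controls 1 to 3, and between 1.14 and 1.55 CPM in DKO libraries (difference -0.22 ± 0.14, adjusted p by limma = 0.348). These levels correspond to few reads, and the log2(CPM + 1) scale understates differences at them.

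Egf encodes epidermal growth factor, a product of Paneth cells in the crypt base and of glands. It was between 1.38 and 2.41 CPM in acute controls and between 0.606 and 1.96 CPM in acute DKO libraries, lowest in DKO 4 (-0.24 ± 0.16, adjusted p by limma = 0.348). In prolonged libraries it was at 2.63, 1.49 and 2.92 CPM in controls and between 1.24 and 3.67 CPM in DKO libraries (difference -0.12 ± 0.23, adjusted p by limma = 0.781). Neither interval excludes 0 (-0.59 to 0.10 and -0.61 to 0.37). Paneth cell markers (9 of 9 measured) moved much further than Egf: their sum went from between 4580 and 9400 CPM in acute controls to between 760 and 3957 CPM in acute DKO libraries, and limma called 7 of 9 lower (8 of 9 without DKO 3 and 4). Among prolonged libraries 6 of 9 were called lower, and the sums were 7618 to 8408 and 1956 to 7372 CPM. Over all tested genes, 12.1% were called lower at the acute time (9.64% without DKO 3 and 4) and 8.94% at the prolonged time.

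Areg lies between Ereg and Btc in the order of protein-coding genes on its chromosome in RefSeq (GRCm38.p6), with the ligand gene Epgn on the far side of Ereg. Of these neighbours, Areg was the only one called on the CPM scale by limma fitted to each time alone with all libraries. Btc and Ereg were each called at the acute time in other fits given above. At the acute time Areg and Ereg, which are adjacent, moved in opposite directions (0.88 and -0.55), with Btc at 0.39. Epgn was at 0.188 CPM or less in every acute library and was not tested. Farther along the same row, Cdkl2, a kinase gene on the Btc side, rose at both times (0.51 ± 0.12 and 0.41 ± 0.09, adjusted p by limma = 0.0106 and 0.0140), and Mthfd2l, which encodes a mitochondrial folate enzyme and lies on the Ereg side, rose at the prolonged time (0.42 ± 0.10, adjusted p by limma = 0.0166). These neighbours were chosen after values were seen.

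Among the receptor genes, Erbb2 fell at the acute time. It was at 205, 252, 231, 217 and 209 CPM in acute controls 1 to 5, and between 143 and 216 CPM in acute DKO libraries, with a median of 169 CPM. Of the 7 DKO libraries, 6 lay below every control, and DKO 5 overlapped them. The difference was -0.36 ± 0.10 (adjusted p by limma = 0.0239), and the median over all tested genes was -0.07. With TMM-scaled CPM, where that median was 0.0110, Erbb2 still differed by -0.27 (adjusted p by limma = 0.0319). The call was lost without control 2 (adjusted p by limma = 0.0616), control 3 (0.0662) or DKO 1 (0.0502), and without DKO 3 and 4 together (-0.28, 0.0607), while 12.1% of all tested genes were called lower at this time. Proliferating cell markers (10 of 10 measured) were lower in the same libraries, with sums between 962 and 1357 CPM in acute controls and between 615 and 875 CPM in acute DKO libraries, and their part in the Erbb2 result was not tested. Prolonged values of Erbb2 were 255, 211 and 215 CPM in controls and between 208 and 215 CPM in DKO libraries, so that only control 1 stood above the rest (-0.09 ± 0.06, adjusted p by limma = 0.358). The proliferating cell markers were lower at that time too (1307 to 1590 and 951 to 1153 CPM). By limma, 10 of 10 (acute) and 9 of 10 (prolonged) of them were called lower, against 12.1% and 8.94% of all tested genes. Their part in the Erbb2 values was not tested at either time.

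Egfr, the receptor that the 6 ligands share, did not pass the test at either time. It was between 27.6 and 30.5 CPM in acute controls and between 24.4 and 31.3 CPM in acute DKO libraries. The difference of -0.08 ± 0.08 had an interval of -0.24 to 0.08, and it changed sign with scaling for composition (0.00535 with TMM-scaled CPM). Egfr in the prolonged model was at 40.8, 40.9 and 41.1 CPM in controls and between 35.7 and 40.9 CPM in DKO libraries (difference -0.08 ± 0.06, interval -0.22 to 0.05, adjusted p by limma = 0.430). Set across the tables, which were normalised separately, its level was higher in both prolonged groups than in both acute groups. The share of all genes that differ likewise was not computed, so this is not read as particular to Egfr. Time and table cannot be told apart in this design.

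Erbb3 was between 326 and 431 CPM in acute controls and between 311 and 469 CPM in acute DKO libraries (difference -0.09 ± 0.10, interval -0.31 to 0.12), and the sign was reversed with edgeR's TMM factors (0.00300). It was at 499, 507 and 457 CPM in prolonged controls and between 499 and 596 CPM in prolonged DKO libraries (difference 0.13 ± 0.06, interval -0.01 to 0.27, adjusted p by limma = 0.216). Per kilobase of annotated exon (GENCODE vM21, another build than the deposited tables), Erbb3 and Erbb2 had the highest levels of the 9 members in every group. In acute controls these were 63.2 and 44.4 CPM per kilobase, against 2.64 for Egfr. Of the ligands in acute controls, Tgfa (7.59 CPM per kilobase), Areg (7.12) and Hbegf (5.73) were highest, and Ereg (0.419) and Egf (0.382) lowest. In acute DKO libraries Areg stood first among ligands, at 14.0 CPM per kilobase, ahead of Tgfa at 9.26. That order did not hold in the prolonged groups, where Tgfa stood first among ligands (7.81 CPM per kilobase in controls and 9.28 in DKO libraries), then Hbegf (7.10 and 8.71) and then Areg (3.73 and 7.00). These ratios depend on the annotated exon length, and the library spread of each gene is the one given above.

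Whether the genotype effect differed between times was tested as a contrast within 1 limma fit over all 20 libraries and 13088 genes. By this test 0 of 9 members passed, with 0% of all genes called. At an unadjusted p under 0.05 limma had 608 genes and edgeR with TMM factors 494, and DESeq2 called 8 genes after adjustment, none of them a member. The Areg effect differed by -0.14 ± 0.39 (prolonged minus acute, interval -0.95 to 0.68) and the Tgfa effect by -0.04 ± 0.08 (interval -0.21 to 0.14). For Hbegf, called only at the acute time, the difference was -0.07 ± 0.26 (interval -0.62 to 0.48), and for Erbb2 it was 0.27 ± 0.14 (interval -0.01 to 0.55, adjusted p by limma = 0.859). The calls of Hbegf and Erbb2 at the acute time alone are therefore not shown to differ from the prolonged time. Their intervals are wide, and equal effects are not shown either.

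The other genes of ErbB signalling were read from 7 lists, with 62 genes tested for the acute and 61 for the prolonged comparison. By limma, calls numbered 3 higher and 1 lower among the acute genes, and 6 higher and 3 lower among the prolonged ones. These are 6.45% of the acute and 14.8% of the prolonged genes, against 15.0% and 14.7% of all tested genes, so the share called was below or near the background. Without DKO 3 and 4 the acute calls were 4 higher and 1 lower (8.06% against 12.6%). The authors' deposited table calls 7 of these genes in the acute and 10 in the prolonged comparison. The median difference was -0.02 and 0.04, against -0.07 and 0.00151 over all tested genes. Feedback and target genes of the MAPK cascade held the largest differences: 2 of 14 tested were called higher at the acute time, and 3 of 14 higher and 1 lower at the prolonged time. The share called in either direction was 14.3% (acute) and 28.6% (prolonged), beside the same 15.0% and 14.7% of all tested genes. Calls higher over all genes were 2.90% and 5.74%, and nothing particular to a list of this size is read from these shares.

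**Figure D3:**
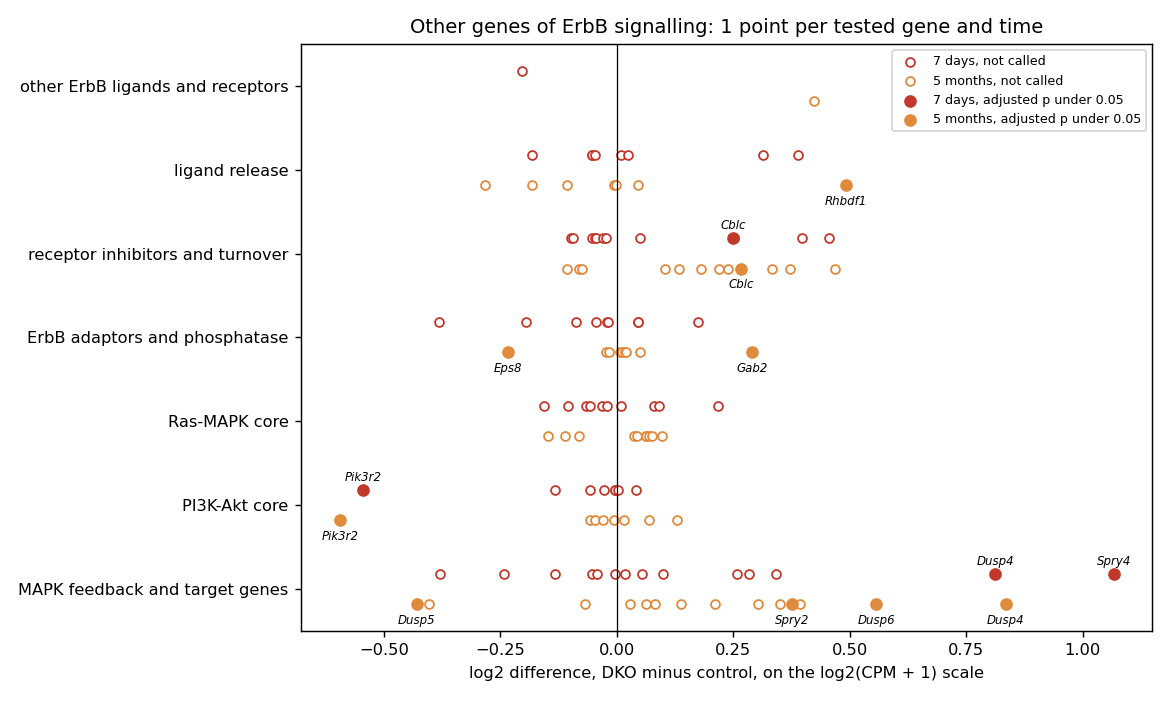
Differences of 62 (7 days) and 61 (5 months) tested genes of ErbB signalling outside the EGF family, 1 point per gene and time, on the log2(CPM + 1) scale. Filled and named points passed an adjusted p of 0.05 by limma; Dusp4, Cblc and Pik3r2 are named at both times.

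Dusp4, which encodes a phosphatase that inactivates MAP kinases and is itself induced by them, separated the groups at both times. It was at 7.79, 9.12, 6.41, 7.42 and 8.12 CPM in acute controls 1 to 5, and between 13.6 and 15.0 CPM in acute DKO libraries (difference 0.81 ± 0.09, adjusted p by limma = 8.79e-05). In the prolonged model it was at 7.07, 9.40 and 10.6 CPM in controls and between 13.8 and 20.1 CPM in DKO libraries (difference 0.84 ± 0.14, adjusted p by limma = 0.00249). Of all tested genes, 1.24% (acute) and 8.82% (prolonged) were likewise higher in every DKO than in every control library. Spry4, a Sprouty inhibitor of receptor signalling, went from 0.416 ± 0.284 to 2.03 ± 0.841 CPM at the acute time (1.07 ± 0.22, adjusted p by limma = 0.00541), with DKO 5 at 0.548 CPM inside the control range. Its acute control mean, a level of few reads, lay below the filter of 0.5 CPM, so it passed that filter only with DKO libraries. With no filter on low values Spry4 was called as well (adjusted p by limma = 0.00551). Its prolonged levels were 0.493 ± 0.167 and 0.992 ± 0.451 CPM, not called (adjusted p by limma = 0.183). Dusp6, a phosphatase specific to ERK kinases, rose at the prolonged time (0.56 ± 0.13, adjusted p by limma = 0.0160), as did Spry2 (0.38 ± 0.11, 0.0426), while Dusp5, an ERK phosphatase of the nucleus, fell (-0.43 ± 0.11, 0.0259). The Dusp6 call was lost without prolonged control 1 (adjusted p by limma = 0.0616) or control 3 (0.0571), and the Dusp5 call without control 1 (0.0639), control 2 (0.0919), DKO 4 (0.0586) or DKO 5 (0.0578). The Spry2 call was lost without control 2 (0.138), control 3 (0.0751), DKO 1 (0.0550), DKO 2 (0.0845), DKO 3 (0.0670), DKO 4 (0.0603) or DKO 5 (0.0915), and with no filter on low values (0.0528). In 1 fit over all 4 groups Dusp6, Dusp5 and Spry2 were not called (adjusted p by limma = 0.175, 0.255 and 0.151).

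Upstream of the cascade few genes were called. Pik3r2, which encodes a regulatory subunit of PI3 kinase, fell at both times (-0.54 ± 0.09 and -0.59 ± 0.06, adjusted p by limma = 0.00205 and 4.98e-05), the sole call among 8 PI3K and Akt genes tested. It went from between 100.7 and 125 CPM in acute controls to between 60.2 and 90.0 CPM in acute DKO libraries. Cblc, an epithelial ubiquitin ligase of the family that removes activated Egfr, rose at both times (0.25 ± 0.06 and 0.27 ± 0.05, adjusted p by limma = 0.0141 and 0.00667), the sole call by limma among 12 inhibitors and turnover genes. A pair of Egfr inhibitors in that list was not called by limma at either time: Errfi1 differed by 0.46 ± 0.19 and 0.47 ± 0.16 (adjusted p by limma = 0.128 and 0.0673) and Lrig1 by -0.05 ± 0.09 and 0.18 ± 0.07 (0.783 and 0.129). In the authors' deposited table Errfi1 is higher at the prolonged time (log2 fold change 0.47, adjusted p = 0.0302), with an adjusted p of 0.0522 at the acute time.

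Of the 10 tested Ras-MAPK core genes, limma called 0 at either time, with 2 acute and 1 prolonged at an unadjusted p under 0.05. The authors' deposited table calls 2 of them higher at the acute time, Nras, a Ras protein gene (log2 fold change 0.19, adjusted p = 0.0142), and Map2k1, which encodes the kinase MEK1 (0.33, adjusted p = 0.0383), and edgeR with TMM factors called Nras. Of the genes that free the ligands from the membrane, limma called 0 of 8 at the acute time, with 0 at an unadjusted p under 0.05. Rhbdf1, which encodes a partner of the sheddase ADAM17, differed by 0.31 ± 0.16 at that time (adjusted p by limma = 0.206). It was called there by edgeR with TMM factors, by limma without DKO 3 and 4, and in the authors' deposited table (log2 fold change 0.45, adjusted p = 0.0158). By limma it rose at the prolonged time (0.49 ± 0.10, adjusted p by limma = 0.00623), from between 14.4 and 17.1 to between 20.3 and 25.9 CPM. Adam17 itself was at 0.02 ± 0.07 and -0.11 ± 0.06 (adjusted p by limma = 0.865 and 0.243). Among adaptors, Gab2 rose and Eps8 fell at the prolonged time (0.29 ± 0.08 and -0.23 ± 0.06, adjusted p by limma = 0.0359 and 0.0157), and 0 of 9 were called at the acute time by limma, edgeR or DESeq2 (1 by limma at an unadjusted p under 0.05). The Gab2 call was lost without control 2 (adjusted p by limma = 0.0800), control 3 (0.182), DKO 1 (0.0572), DKO 2 (0.0676), DKO 3 (0.0654) or DKO 5 (0.0724), and the Eps8 call without control 2 (0.0560) or control 3 (0.0889). Rhbdf1 and Eps8 were not called in 1 fit over all 4 groups (adjusted p by limma = 0.0893 and 0.206). Of the remaining ErbB ligands and receptors only Nrg4, which encodes a neuregulin that binds Erbb4, passed the filter, with differences of -0.20 ± 0.20 and 0.42 ± 0.14 (adjusted p by limma = 0.564 and 0.0593).

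The genes most like Areg were sought among 13087 others, by the root mean square difference of log2(CPM + 1) over all 20 libraries after centring each gene within its time. The nearest was Dusp6 (0.306), narrowly followed by the interferon-induced genes Oasl2 (0.307), Ido1 (0.313) and Stat2 (0.313), against a median of 0.649 over all genes and 0.577 for Areg's own spread. Oasl2 and Stat2 were called higher at both times. Oasl2 differed by 0.98 and 0.81 (adjusted p by limma = 0.00222 and 0.000237) and Stat2 by 0.61 and 0.55 (0.0281 and 0.00460). Ido1 was called higher at the prolonged time only (0.80, adjusted p by limma = 0.0183). Dusp6 was chosen for its likeness to Areg in these same libraries, so shared high libraries follow in part from that choice. In the acute libraries DKO 4 was highest for both (141 CPM for Dusp6 and 33.4 CPM for Areg). Control 5, at 85.8 CPM of Dusp6, was the highest control for both. Dusp6 itself was not called at the acute time (0.34 ± 0.21, adjusted p by limma = 0.301). In the prolonged libraries Dusp6 was at 35.1, 53.0 and 43.6 CPM in controls 1 to 3, and at 70.2, 72.1, 66.1, 49.9 and 65.0 CPM in DKO 1 to 5. In both genes control 1 was the lowest of the prolonged libraries, while the lowest DKO library was DKO 3 for Areg and DKO 4 for Dusp6. The measure favours genes of similar spread, so it is a description of these libraries. By the same measure the genes nearest to Egfr were Eapp (0.0646), G6pdx (0.0666), Spin1 (0.0721) and Afg3l1 (0.0722), none of them called at either time.

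**Figure D4:**
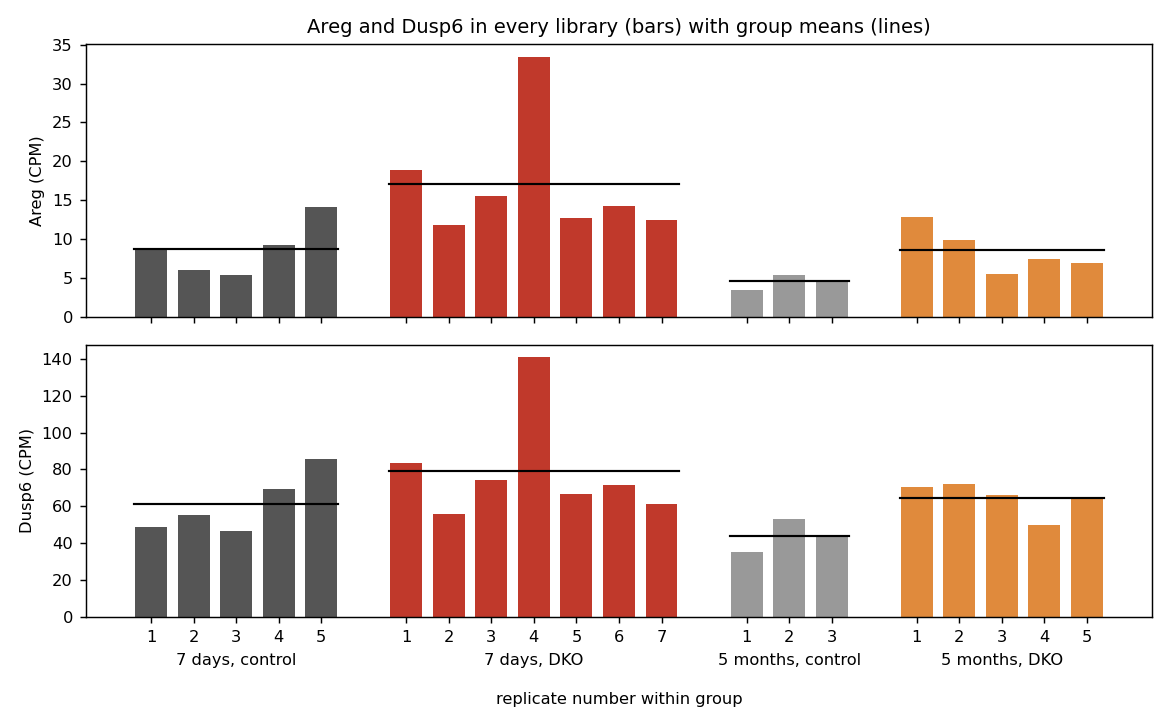
CPM of Areg and of Dusp6 in each of the 20 libraries (bars), ordered by group and replicate number, with group means as lines. Both genes peak in acute DKO 4, at 33.4 CPM for Areg and 141 CPM for Dusp6, and have their highest control value in acute control 5. Dusp6 was drawn as the gene nearest to Areg in these same libraries (root mean square difference 0.306), narrowly ahead of Oasl2 (0.307).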

How the data were processed

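Tools listed in the submitters' processing notes, without roles, are DESeq2, featureCounts 1.6.2, STAR, bedtools 2.27.1, SAMtools 1.9 and FastQC 0.11.5, with the build mm9. The authors deposited CPM per library and gene symbol, with equal column sums. Per the file headers, the authors' deposited DESeq2 columns are a mean normalised signal, log2 fold changes with standard errors, and p-values. The columns of test statistics, calls and group means were not used (8 in all). Within a library all values (100%) came to whole reads, to within 0.01 reads, once divided by the smallest unit, so counts were rebuilt for the count tests. That unit is close to a power of 10 in prolonged control 3, where rounding could look alike. Of the acute rows, 4 with repeated names were left out.

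limma-trend (limma 3.58.1, R 4.3.3) was run on log2(CPM + 1), for genes with CPM of at least 0.5 in at least 5 acute or 3 prolonged libraries, with Benjamini-Hochberg adjustment over all genes and a threshold of 0.05. Alternatives were edgeR 4.0.16 (quasi-likelihood) and DESeq2 1.42.0 on recovered reads, other pseudocounts, filters, scaling and a replicate block, and leaving out libraries. The scripts were tested on simulated data. Members and lists were chosen with earlier results of these data known. Named pathway genes are, per list and time, at most 3 called in each direction with the largest differences. A few others (Errfi1, Lrig1, Adam17, Nras, Map2k1, Mcpt1, Il5) were chosen after their values were seen, as background on known inhibitors, release and cell types. The sources used here do not say whether strand was used in counting. Replicate numbers did not pair the libraries.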

Additional observations from a re-analysis of the deposited data

Results flagged for a closer look

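Groups of 5 or 7 libraries were searched for a library far from the others, in 33 combinations of gene and group, and 2 were found. Chance flags about 1 in 20 such groups. Tgfa in acute control 2 was 38.0 CPM, and its gap to the next control took up 0.840 of the range of the 5 controls on the log2(CPM + 1) scale, so this control sets the narrow margin to the DKO libraries. Btc in prolonged DKO 3 was 6.19 CPM, below the other 4 DKO libraries, with a gap of 0.729 of their range, and it is the library that overlaps the controls.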

How the results depend on the processing

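Areg, Tgfa, Hbegf and Erbb2 kept their direction at both times under every alternative run. Leaving out 1 library gave between 1 and 4 called members at the acute time and between 0 and 2 at the prolonged time, and between 4 and 6 and between 6 and 8 called pathway genes (4 and 9 with all libraries). DESeq2 called 8 pathway genes at the acute time, and 1 fit over 4 groups called 7 acute and 4 prolonged ones, with 1 prolonged member (Tgfa). Called acute members numbered 5 with TMM-scaled CPM, edgeR (TMM or RLE), DESeq2 or 1 fit over 4 groups, and 3 with no filter or without DKO 3 and 4. With the replicate block 0 members were called at either time and 4 pathway genes at the prolonged time, against 947 and 528 of all genes. The replicate numbers do not pair the libraries, since same-numbered libraries had correlations of deviations from -0.20 to 0.20 (acute) and from -0.24 to -0.16 (prolonged). In the acute libraries Egfr was reversed to 0.00535 with TMM-scaled CPM, 0.00790 and 0.0191 with edgeR's TMM and RLE factors and 0.0184 with DESeq2, and Erbb3 to 0.00300, 0.0142 and 0.0142 with the last 3. Without acute DKO 3 and 4 the between-time difference of Areg was 0.061 and of Egf -0.014. Leaving out 1 library moved the Egf difference at the prolonged time between -0.32 and 0.0095, and the between-time differences of Areg between -0.31 and 0.035, Egf between -0.075 and 0.25, Hbegf between -0.26 and 0.25, Tgfa between -0.082 and 0.026 and Egfr between -0.029 and 0.029. The median over all acute genes moved by less than 0.1 with scaling. The cause of these changes was not tested.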
